A study of Rattus norvegicus with 9 samples.

Results

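The cytosolic ribosomal protein genes are the genes that encode the protein building blocks of the cytoplasmic ribosome. They were chosen by name: every non-control probe of the array whose gene symbol begins with Rpl or Rps and a number, or is Rplp0 to Rplp2 or Rpsa, with the S6 kinases left out, and then the brightest probe of each gene. The rule took 112 probes of 75 genes, 44 of the large subunit and 31 of the small subunit, out of 25776 features tested. All 75 genes were well above background on all 9 arrays and none was saturated, so no member was lost to the filter on dim probes.

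The arrays held total RNA of dissociated cortical neurons from prenatal rats, kept for 11 to 15 days in culture. All 9 samples had first been silenced for 48 h with tetrodotoxin (TTX), a blocker of voltage-gated sodium channels. Of these, 3 were collected in TTX (TTX), 3 at 15 min after it was washed out (W15) and 3 at 45 min after washout (W45), so every comparison contrasts times after the return of activity and none includes neurons that were never silenced or that were washed without silencing. The labels number the replicates but do not say that they are separate cultures, so p-values measure only the spread between these samples. Markers of several cell types were measured. In units of an array's 75th percentile, their summed signal ranged over the 9 arrays from 195 to 267 for 10 neuron markers, from 73.96 to 99.8 for 7 astrocyte markers and from 49.8 to 63.4 for 10 oligodendrocyte lineage markers. It ranged from 1.51 to 1.92 for 7 endothelial and fibroblast markers and from 0.26 to 0.46 for 6 microglia and macrophage markers. Such sums compare arrays and not cell types, since each probe has its own brightness. Fewer cells of a type and less RNA per cell cannot be told apart in such bulk samples.

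A ribosome is built from a small subunit, which reads the messenger RNA, and a large subunit, which joins the amino acids. Each is made of ribosomal RNA and many proteins, most of which are needed in equal number. In mammals the mRNAs of ribosomal proteins typically begin with a C followed by a run of pyrimidines, the 5′ terminal oligopyrimidine (TOP) tract, through which the mTOR kinase and the RNA-binding protein Larp1 control how actively they are translated. Ribosomal protein mRNAs are abundant and long-lived, and in neurons some of them are carried into axons and dendrites.

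The tract was looked for in the RefSeq promoter table (rat assembly GRCr8, 250 bases before to 50 bases after each annotated start), in which 60 of the 75 genes were found by symbol. The following windows hold 30 bases before the start and 20 bases from the start on. They are shown because these members carry the largest positive differences, dips at 45 min or the stalk of the ribosome, and they show how the start differs among them. Capitals mark a C at the annotated start with the unbroken C and T run behind it where that run holds at least 4 bases, and a window with no capitals has no run of that length at that base.
Rps15 (chr7:10068096-10068145, minus strand): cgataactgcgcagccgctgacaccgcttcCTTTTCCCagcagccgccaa
Rps3a (chr2:173827023-173827072, minus strand): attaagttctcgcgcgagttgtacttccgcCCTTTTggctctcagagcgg
Rps26 (chr7:1643385-1643434, minus strand): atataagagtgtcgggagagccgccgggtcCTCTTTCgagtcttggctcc
Rps27 (chr2:177964587-177964636, minus strand): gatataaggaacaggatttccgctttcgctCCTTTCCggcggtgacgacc
Rplp1 (chr8:71290853-71290902, minus strand): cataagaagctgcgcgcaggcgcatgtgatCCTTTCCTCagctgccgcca
Rpl13a (chr1:104748894-104748943, minus strand): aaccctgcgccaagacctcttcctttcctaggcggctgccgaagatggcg
Rpl29 (chr8:115947613-115947662, plus strand): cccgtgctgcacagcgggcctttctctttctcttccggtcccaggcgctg
Rps4x (chrX:71342902-71342951, minus strand): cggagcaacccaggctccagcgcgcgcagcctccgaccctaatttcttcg

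A C at the annotated start base followed by at least 4 bases that are C or T stood in 23 of the 60 genes (38.3%), against 2.63% of all 33469 promoters of the table. With the tract allowed to begin anywhere within 5 bases of the annotated start, the count was 38 of 60 (63.3%), against 17% of all promoters. In the genes with a tract at the start base, it ran for 5 to 12 bases, with a median of 8. Rpl13a shows a pyrimidine run just upstream of the annotated start, and in Rpl29 such a run spans the start, where the base is a T. A start annotated a few bases off would therefore change the count.

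The letters CCGGAAG, searched on both strands of the same window, were in 19 of the 60 genes (31.7%) and in 8.75% of all promoters. AAGATGGC was in 5 genes (8.33%) against 3.17%, and TATAAA was in 5 genes (8.33%) against 14.2%. A match describes letters and is no evidence of a bound factor.

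**Figure D1:**
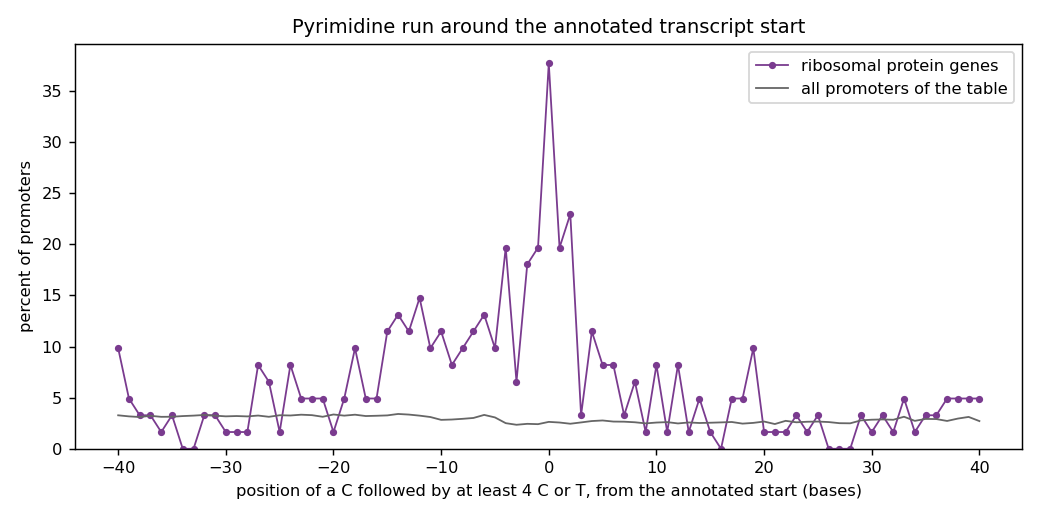
Percent of promoters (y axis) with a C followed by at least 4 C or T at each position from the annotated transcript start (x axis, bases), for the ribosomal protein genes (purple) and all promoters of the RefSeq table (grey). The purple line peaks at the start base and the grey line stays near 2.63% there.

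When activity returned, no ribosomal protein gene changed by the test. No member passed an adjusted p of 0.05 (limma, Benjamini-Hochberg over all 25776 features) at 15 min, at 45 min or between these times, in either direction. Over all features, 0.0233% were called higher and 0% lower at 15 min, 0.186% higher and 0.0233% lower at 45 min, and 0.12% higher and 0.0116% lower at 45 min against 15 min, so with 75 members a count of 0 lies near the background. At an unadjusted p under 0.05 stood 2 members higher and 0 lower at 15 min, 1 higher and 1 lower at 45 min, and 0 higher and 3 lower at 45 min against 15 min. The shares of all features at that limit were 2.35% higher and 0.954% lower at 15 min, and 3.58% and 2.74% at 45 min. Between 45 and 15 min they were 2.69% and 3.94%. The alternative fits called 0 members too, except 1 that left out an array and called Rps25, as described with that gene. The same fit called the activity genes Fos, Npas4 and Egr1 higher at 15 min, and these together with Arc at 45 min. For scale, Fos stood 6.61 above TTX on the log2 scale at 45 min, with values of -3.16, -3.02 and -2.63 on the TTX arrays and 4.03, 3.90 and 3.08 on the W45 arrays.

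The fit also bounds how large a change could have gone unseen. The 95% interval of the log2 fold change lay within 1 on either side of 0, that is within a 2-fold change, for all 75 genes at 15 min and for 73 at 45 min, the exceptions being Rpl36a and Rps25. Within 0.5 on either side lay the intervals of 49 genes at 15 min and 42 at 45 min. Between W45 and W15, 72 intervals lay within 1, and Rpl36a, Rps25 and Rps26 did not.

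**Figure D2:**
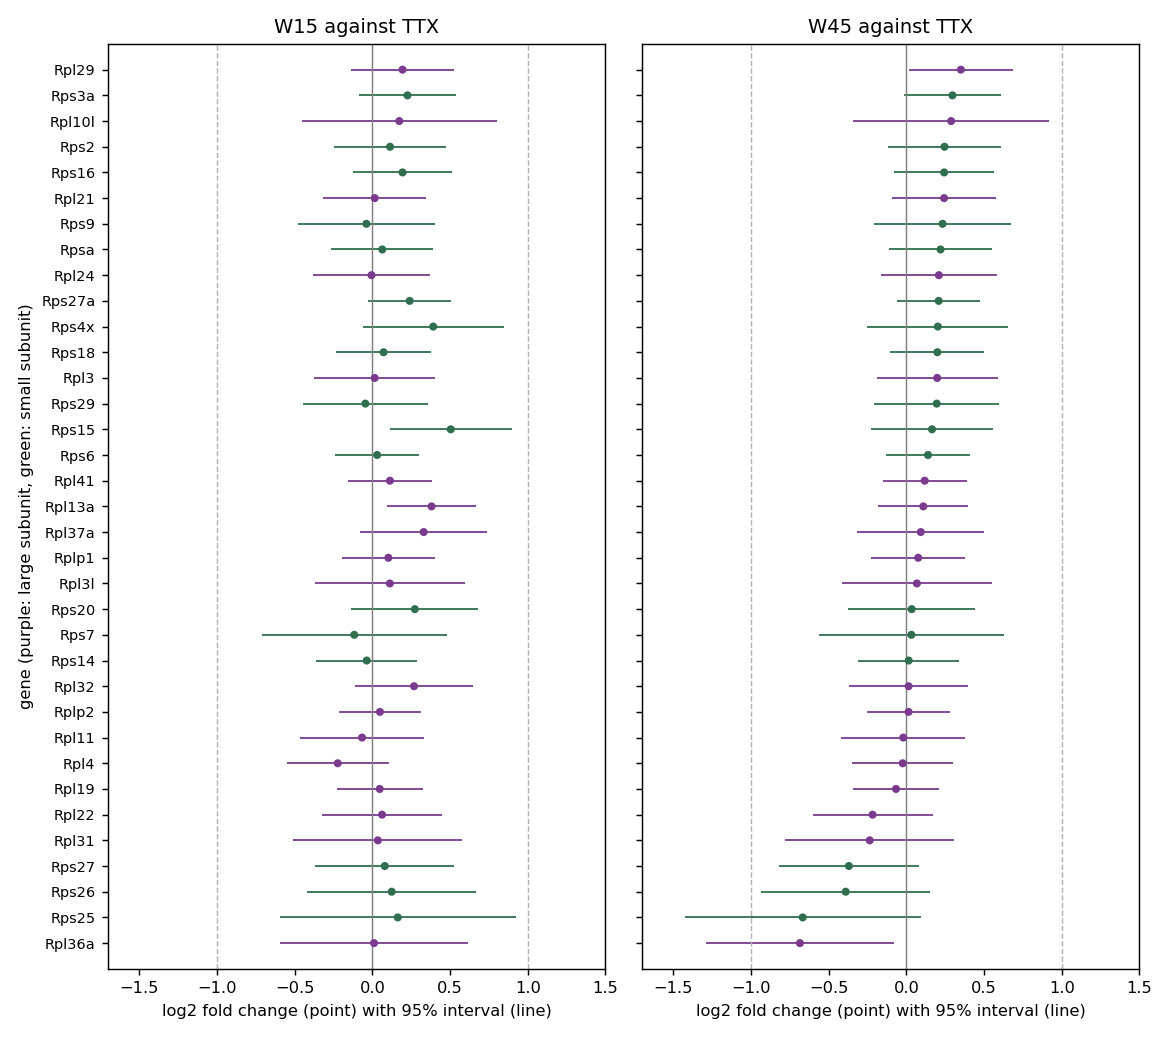
Log2 fold change of 35 of the 75 ribosomal protein genes (points), those that the naming rule takes, with its 95% interval from limma (lines), W15 against TTX on the left and W45 against TTX on the right, ordered by the right panel. Purple marks the large subunit with its stalk and green the small subunit, and dashed lines mark a 2-fold change. Most points lie slightly to the right of 0, and Rpl36a and Rps25 reach past the dashed line at 45 min.

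Small differences ran mostly one way. At 15 min the median log2 fold change of the members was 0.10 and 66 of 75 were above 0, against a median of 0.05 and 60.4% above 0 over all features. At 45 min, compared with the same TTX arrays, the median was 0.11 and 61 of 75 were above 0, against 0.05 and 59.5%. Between W45 and W15 the median was -0.0025 with 37 of 75 above 0, against 0.0018 and 50.3%. The array medians of the members varied within groups with an SD of 0.0775.

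Set against the median of all features, the members lay 0.0546 higher at 15 min and 0.0613 higher at 45 min. Without scaling, which shifts all features of an array alike, the members' medians were -0.0962 and -0.152 and those of all features -0.151 and -0.213, so these distances stayed 0.0546 and 0.0613. Under quantile normalization they were 0.0456 and -0.0149, with all features at 0.0158 and 0.0134. After normexp background correction they were 0.0571 and 0.0883, below the medians of all features, 0.206 and 0.117. The members therefore lay below the median of all features at 45 min under quantile normalization and at both times after normexp.

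Array by array, the median deviation of the members from their own means was -0.08, 0.01 and -0.11 on the TTX arrays, 0.10, 0.01 and 0.02 on the W15 arrays, and 0.06, 0.13 and -0.08 on the W45 arrays. The third W45 array therefore sat as low as TTX while the second was the highest of all, and the groups overlapped. All features gave -0.04, 0.01 and -0.04 on the TTX arrays, 0.07, 0.02 and -0.01 on the W15 arrays, and -0.02, 0.09 and 0.03 on the W45 arrays. Of the 75 members, 22 had their lowest value on the third TTX array, 19 on the third W45 array and 14 on the first TTX array, and 30 had their highest value on the second W45 array.

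**Figure D3:**
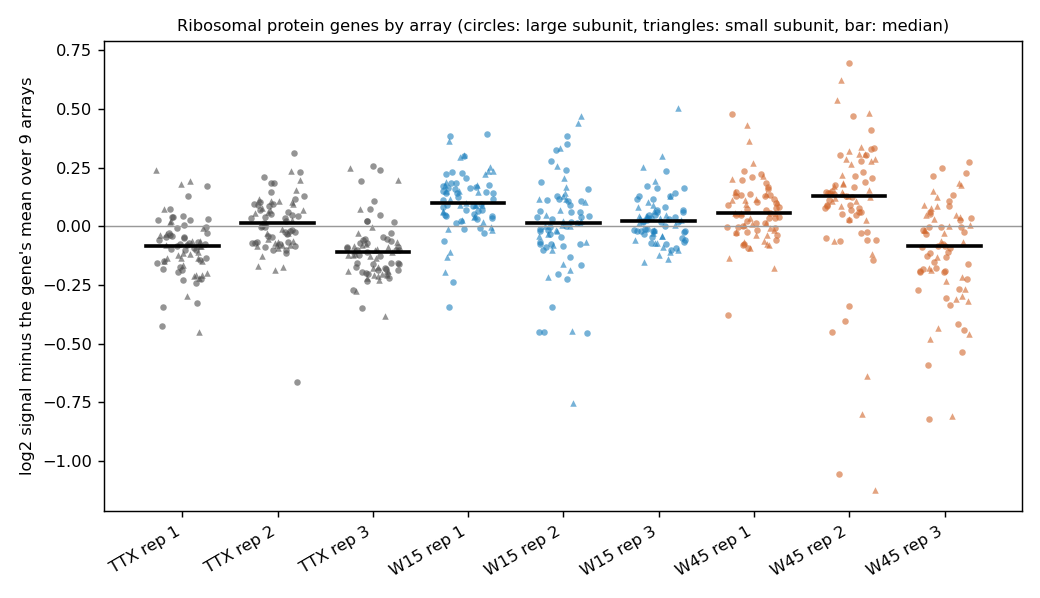
Each point is one ribosomal protein gene on one array: its log2 signal, scaled to the array's 75th percentile, minus the gene's mean over the 9 arrays (y axis). Circles are large-subunit genes with the stalk, triangles small-subunit genes, black bars the median of the 75 genes on each array, which run from -0.11 to 0.13, and colours the 3 groups. A few points on the second and the third W45 arrays lie far below the rest.

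Members shared their ups and downs from array to array. The median correlation between pairs of members over the 9 arrays was 0.352, and 0.319 after removing group means. It was 0.0845 for 62 mitochondrial ribosomal protein genes, 0.202 for 73 oxidative phosphorylation subunits and 0.195 for 27 other translation genes of the TOP type. These pairs share the arrays, their scaling and a high signal, and the values are given as a description. Rpl10a (0.95), Rpl39 (0.92) and Rpl36 (0.92) followed the median of the members most closely, and 52 of 75 had a correlation with it above 0.5. It was below 0 for 8 members: Rpl30, Rpl3l, Rps27, Rps25, Rpl36a, Rpl35a, Rps26 and Rpl11.

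Single members varied little between arrays. The range over the 9 arrays had a median of 0.467 on the log2 scale and was below 0.5 for 39 genes. It was largest for Rps25, at 1.59. The median SD within a group was 0.102 in TTX, 0.114 in W15 and 0.182 in W45, so the W45 arrays spread the most. Values are given below as log2 signal relative to an array's 75th percentile, and they compare arrays for one probe, not one gene with another.

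The stalk of the large subunit, an extension that recruits translation factors, is built from Rplp0, Rplp1 and Rplp2. Rplp1 read 7.49, 7.67 and 7.37 in TTX, 7.69, 7.68 and 7.47 in W15, and 7.57, 7.70 and 7.49 in W45. The groups overlapped, and the log2 fold change was 0.10 ± 0.13 (SE, n = 3 against 3) at 15 min and 0.08 ± 0.13 at 45 min. Rplp2 differed from TTX by 0.05 and 0.01, with a standard error of 0.12. Rplp0 is not on the array under that symbol, but RefSeq gives it for a probe filed as Arbp, which read 3.78, 3.65 and 3.52 in TTX, 3.71, 3.02 and 3.57 in W15 and 3.49, 3.77 and 3.60 in W45, again overlapping.

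In the small subunit, Rps6, the classical substrate of the S6 kinases downstream of mTOR, read 7.26, 7.50 and 7.29 in TTX, 7.39, 7.38 and 7.36 in W15, and 7.41, 7.49 and 7.56 in W45. All 3 W45 values lay within or just above the TTX range, with log2 fold changes of 0.03 ± 0.12 and 0.14 ± 0.12 (SE, n = 3 against 3). An array measures the amount of this mRNA and not the phosphorylation of the protein. Rpsa, also known as the laminin receptor, differed by 0.06 ± 0.15 and 0.22 ± 0.15 at 15 and 45 min. Rps27a, made as a fusion with ubiquitin, read 5.75, 5.93 and 5.75 in TTX, 6.14, 5.98 and 6.04 in W15, and 5.97, 6.09 and 6.01 in W45. All its values after washout lay above all TTX values, by 0.24 ± 0.12 and 0.21 ± 0.12, with adjusted p = 0.9995 and 0.822 by limma.

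Some members are often used as reference genes. Rpl13a, one of these, is described with the 15 min differences. Rpl19 differed from TTX by 0.05 and -0.07 at 15 and 45 min by its brighter probe and by 0.25 and 0.16 by its other probe. Rps18 differed by 0.07 and 0.20, and Rpl41, which encodes a very short peptide, by 0.11 and 0.12. The standard errors of these 3 genes, by their brightest probes, were 0.12 to 0.13. Of the copies with tissue-restricted relatives, Rpl3l, the striated-muscle paralog of Rpl3, differed by 0.11 and 0.07 with a standard error of 0.21, and Rpl10l, the testis-expressed retrogene of Rpl10, by 0.17 and 0.29 with 0.28. Near-identical copies and pseudogenes are many in this family, so a probe may also bind transcripts of a relative: the Rpl10l probe, both Rpl36a probes and 1 Rpl37 probe carry another symbol in RefSeq.

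At 15 min, all 3 W15 arrays lay above all 3 TTX arrays for 18 of the 75 genes (24%), against 9.68% of all features, and below them for 0 of 75, against 3.79%. Among the 18 were Rpl10, Rpl13a, Rpl18, Rpl29, Rpl32 and Rpl34 of the large subunit and Rps15, Rps20, Rps27a, Rps3a and Rps4x of the small subunit.

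Unadjusted p-values under 0.05 were reached by 2 genes upwards and 0 downwards, where 2.35% and 0.954% of all features did. One was Rps15, a protein of the head of the small subunit, which read 2.53, 2.80 and 2.95 in TTX, 3.29, 3.42 and 3.09 in W15, and 3.20, 2.86 and 2.71 in W45. Its W15 values all lay above TTX and its W45 values overlapped TTX, with log2 fold changes of 0.50 ± 0.17 (1.42-fold; unadjusted p = 0.0174, adjusted p = 0.9995 by limma) and 0.16 ± 0.17. The other probe filed under Rps15 lies on the opposite strand by the files' coordinates and is no second reading of this mRNA.

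The other was Rpl13a, which besides its place in the large subunit takes part in translational silencing in the interferon response. It read 6.30, 6.38 and 6.32 in TTX, 6.73, 6.88 and 6.53 in W15, and 6.52, 6.44 and 6.37 in W45. All W15 values lay above every TTX and every W45 value, by 0.38 ± 0.13 against TTX (1.30-fold; unadjusted p = 0.0152, adjusted p = 0.9995 by limma), and at 45 min the difference from TTX was 0.11 ± 0.13.

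The next largest positive differences at 15 min were those of Rps4x, the X-linked small-subunit gene (0.39 ± 0.20), Rpl37a (0.33 ± 0.18), Rps20 (0.27 ± 0.18, and 0.21 by its second probe) and Rpl32 (0.27 ± 0.17). The Rpl37a probe had the lowest signal of the 75 members, with a mean level of -2.83 where their median was 6.15. Its W15 and TTX values overlapped. Rps4x read 4.91, 4.96 and 4.92 in TTX and 5.36, 5.46 and 5.14 in W15, then 5.49, 5.24 and 4.67 in W45. It was above TTX on every array after washout except the third W45 array. The most negative differences were small: Rpl4 at -0.22 ± 0.15, Rps7 at -0.12 ± 0.27 and Rpl11, a protein that can bind Mdm2 when ribosome assembly is disturbed, at -0.07 ± 0.18. For Rps7 the spread came from 1 array, the second W15 array, at 3.28, where the other 8 lay between 3.85 and 4.34.

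At 45 min, 9 of 75 genes (12%) had all W45 values above all TTX values, against 7.96% of all features, and 1 of 75 (1.33%), Rpl22, had all below, against 3.51%. The 9 were Rpl10, Rpl18, Rpl24, Rpl29, Rpl3, Rpl34, Rps27a, Rps3 and Rps3a. Both comparisons use the same TTX arrays, so one does not repeat the other. Rpl10, a late-joining protein of the large subunit, read 6.15, 6.31 and 6.29 in TTX, 6.37, 6.41 and 6.43 in W15, and 6.51, 6.51 and 6.44 in W45. These values did not overlap between any of the groups, with differences from TTX of 0.15 ± 0.11 and 0.23 ± 0.11 (adjusted p = 0.9995 and 0.780 by limma), and a second Rpl10 probe gave 0.17 and 0.23.

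One gene had an unadjusted p under 0.05 upwards at 45 min, where 3.58% of all features did. This was Rpl29, a small basic protein of the large subunit also known as a heparin-binding protein, which read 6.19, 6.33 and 6.23 in TTX, 6.45, 6.42 and 6.47 in W15, and 6.49, 6.90 and 6.41 in W45. Its W45 values lay above TTX, the second W45 array most of all, by 0.35 ± 0.15 (1.28-fold; unadjusted p = 0.0416, adjusted p = 0.777 by limma). Its other 3 probes gave 0.08, 0.04 and 0.16. Rps3a followed with 0.30 ± 0.14, then Rpl10l with 0.29 ± 0.28, and Rps2, Rpl21 and Rps16 with 0.25, 0.24 and 0.24. The other 3 Rps2 probes gave 0.24, 0.17 and 0.06, and the other 4 Rpl21 probes 0.03, -0.17, -0.19 and 0.08.

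The other side of the distribution held the widest departures. Rpl36a read 5.45, 5.60 and 5.48 in TTX, 5.67, 5.47 and 5.42 in W15, and 5.49, 4.23 and 4.75 in W45. Both probes filed as Rpl36a carry the symbol Rpl36al1 in RefSeq, so these values may be those of a relative. The first W45 array matched the earlier groups and the second and the third lay below all others, so the log2 fold change of -0.69 ± 0.27 at 45 min (unadjusted p = 0.0309, adjusted p = 0.762 by limma) rests on 2 of 3 arrays. This was the 1 gene with an unadjusted p under 0.05 downwards, where 2.74% of all features had one.

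Rps25, a small-subunit protein that some viral internal ribosome entry sites require, showed the same array pattern. It read 4.61, 4.83 and 4.84 in TTX, 4.82, 5.06 and 4.89 in W15, and 5.02, 3.47 and 3.78 in W45. The difference of -0.67 ± 0.34 at 45 min had an adjusted p of 0.797 by limma over the 9 arrays. Without the first W45 array it was -1.13 with adjusted p = 0.0232, the only call of a member under any alternative together with that of the same gene against W15 (-1.30, adjusted p = 0.0145). That fit called 95 features lower against TTX and 120 against W15, where the fit of all 9 arrays called 6 and 3. Over its alternatives the adjusted p of Rps25 ran from 0.0232 to 0.9999 against TTX and from 0.0145 to 0.9996 against W15. With the first W45 array alone standing for W45, the difference from TTX was 0.27.

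Rps27, a zinc-finger protein of the small subunit, was lower on the same arrays, at 4.90 and 5.22 against 5.44 to 5.79 on the other 7. Rps26, which contacts mRNA upstream of the start codon, read -0.37 and 0.21 there against 0.26 to 0.93 elsewhere. Their log2 fold changes at 45 min were -0.37 ± 0.20 and -0.39 ± 0.24, with adjusted p = 0.814 and 0.835 by limma. With W15 as the reference, Rpl36a, Rps25 and Rps27 had unadjusted p-values of 0.029, 0.0353 and 0.0494, where 3.94% of all features had one under 0.05 downwards, and 0 members upwards, where 2.69% did. In that comparison W45 lay wholly above W15 for Rpl10 and Rps6 (2 of 75, 2.67%, against 3.98% of all features) and wholly below for Rpl13a (1 of 75, 1.33%, against 4.16%).

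Both low arrays share a slide with the first and second W15 arrays, as read from the file headers, whereas the first W45 array shares a slide with the first TTX and the third W15 array. On the shared slide, Rps25 was not low in W15 (4.82 and 5.06). Within the slide that holds 1 array of each group, the W45 array of Rps25 lay 0.42 above the TTX array. The second and the third TTX arrays lie on a slide without any W15 or W45 array. Slide and washout therefore cannot be fully told apart in the comparisons with TTX. The summed astrocyte markers were also lowest on the second and the third W45 arrays, at 73.96 and 74.6 against 82.7 to 99.8 on the other 7, and their part in the dips was not tested. The deviations of all features had an interquartile range of 0.339 on the second and 0.405 on the third W45 array, against 0.213 to 0.355 on the other 7.

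**Figure D4:**
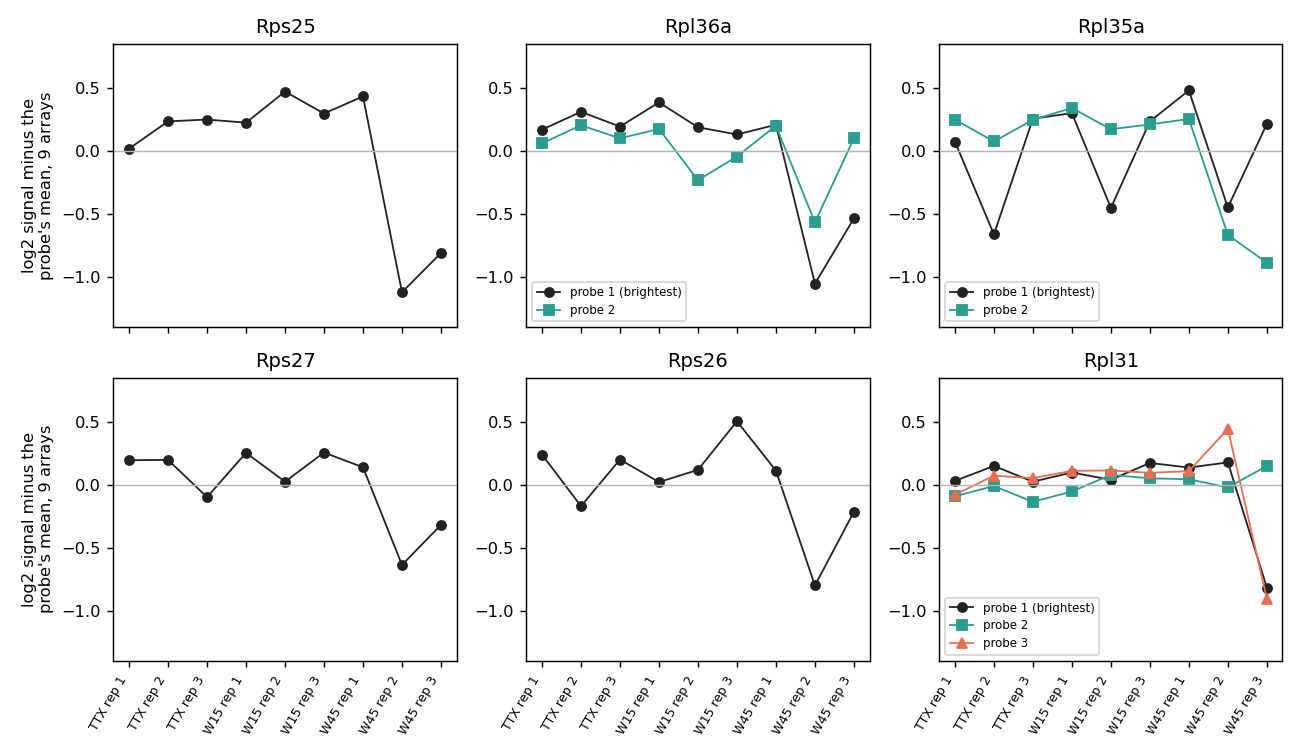
Log2 signal of every probe of 6 ribosomal protein genes minus the probe's mean over the 9 arrays (y axis), by array (x axis), with the brightest probe of each gene in black. Rps25, Rpl36a, Rps27 and Rps26 drop on the second and the third W45 arrays, while the probes of Rpl35a and Rpl31 part from each other on single arrays.

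Several probes of one gene gave a check on such dips. Of the 75 genes, 25 had more than 1 probe, which made 57 pairs, and the fold changes of a pair had the same sign in 41 pairs at 15 min and in 37 at 45 min. The median difference within a pair was 0.0754 at 15 min and 0.162 at 45 min. In 3 genes, 6 of these pairs lie on opposite strands by the files' coordinates. Without them the signs were the same in 38 and 34 of 51 pairs and the median differences 0.061 and 0.175. The first 30 of the 60 bases of both Rpl36a probes are shown because the probes are almost the same: they share 54 bases, shifted by 6, which are in capitals.
Rpl36a probe 1 (chr6:91139211-91139270 in build rn3): GGGTCAAGTGATCCAGTTCTAAAACTTGTG
Rpl36a probe 2 (chr6:91139217-91139276 in build rn3): gagaaaGGGTCAAGTGATCCAGTTCTAAAA
On the 3 W45 arrays the first probe read 5.49, 4.23 and 4.75 and the second 5.48, 4.71 and 5.38. Both were low on the second array, but on the third only the first probe was, so the log2 fold change was -0.69 by one and -0.21 by the other.

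Rpl35a gave the widest disagreement at 45 min. Its brighter probe read 3.76, 3.02 and 3.94 in TTX, 3.98, 3.23 and 3.92 in W15, and 4.16, 3.24 and 3.90 in W45, low on the second array of every group. Its other probe read 2.34, 2.16 and 2.34 in TTX, 2.43, 2.26 and 2.30 in W15, and 2.34, 1.42 and 1.20 in W45, low on the second and the third W45 arrays. The log2 fold changes were 0.19 and -0.62. Rpl31 had 3 probes, of which 2 were low on the third W45 array (5.75 against 6.59 to 6.74 elsewhere, and 4.40 against 5.23 to 5.75) and 1 did not (6.55 against 6.26 to 6.48). One of 3 Rpl5 probes was low on the same array, at 4.04 on that array against 5.32 to 5.76 elsewhere, where the brightest read 5.95 against 5.79 to 6.13.

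Dips of this kind were most frequent on 3 arrays. A value more than 0.5 below the median of the other 8 arrays was found for 6 of 75 genes on the third W45 array (Rpl31, Rpl35, Rpl36a, Rps20, Rps25 and Rps4x), 5 on the second W45 array (Rpl35a, Rpl36a, Rps25, Rps26 and Rps27), 4 on the second W15 array (Rpl24, Rpl3, Rpl35a and Rps7) and 1 on the second TTX array (Rpl35a). The other 5 arrays had none. Values more than 0.5 above were found for Rpl10l, Rps21, Rps28 and Rps9 on the second W45 array and for Rps15 on the second W15 array. These counts were not made over all features, so they cannot be called particular to the members. The deviations of all features also spread most on the third W45, second W45 and second W15 arrays, with interquartile ranges of 0.405, 0.339 and 0.355.

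The subunits had similar medians at 15 min, 0.10 for the 44 large-subunit genes and 0.11 for the 31 small-subunit genes. At 45 min they were 0.08 and 0.14, with 33 of 44 and 28 of 31 above 0. Genes with the TOP tract at the annotated start had medians of 0.10 and 0.11 at 15 and 45 min (23 genes), those without it 0.07 and 0.13 (37 genes), and the 15 genes without a match in the promoter table had medians of 0.12 and 0.03. These differences between subsets were not tested. Promoters were matched by the filed symbol, also for Rpl36a and Rpl37, whose brightest probes carry other symbols in RefSeq.

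The other lists of the translation machinery also had 0 genes called by limma in every comparison. Of 28 listed translation genes of the TOP type outside the ribosome, 27 were measured, with medians of 0.04 and 0.06 at 15 and 45 min. At unadjusted p under 0.05 stood 0 of them at 15 min and 1 upwards at 45 min, Tpt1, which encodes the translationally controlled tumour protein and differed by 0.44 ± 0.16 (adjusted p = 0.716). The shares of all features at that limit were 2.35% upwards and 0.954% downwards at 15 min, and 3.58% and 2.74% at 45 min. Fau, which encodes a ribosomal protein fused to a ubiquitin-like protein, differed by 0.10 at 45 min, and Rack1, a scaffold bound to the small subunit, by -0.20.

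Of 34 listed ribosome biogenesis and RNA polymerase I genes, 30 were measured, with medians of 0.03 and -0.02 and 0 at unadjusted p under 0.05 against TTX. Among 25 measured of 28 genes that control the translation of ribosomal protein mRNAs, medians were 0.03 and 0.09. Larp1 differed by 0.15 and 0.22, Mtor by -0.08 and 0.06, and Eif4ebp2, a repressor of cap-dependent translation, by -0.20 and -0.62 (adjusted p = 0.779 at 45 min), the 1 gene of that list at unadjusted p under 0.05. The mitochondrial ribosomal protein genes had medians of 0.04 and 0.03 and the oxidative phosphorylation subunits of 0.03 and 0.04, with 0 and 1 and with 3 and 1 genes at unadjusted p under 0.05 upwards and downwards at 45 min. Of all features, 3.58% reached that limit upwards and 2.74% downwards at 45 min. A further 22 measured features that only RefSeq names as ribosomal proteins, many of them pseudogenes, had medians of 0.08 and 0.09.

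**Figure D5:**
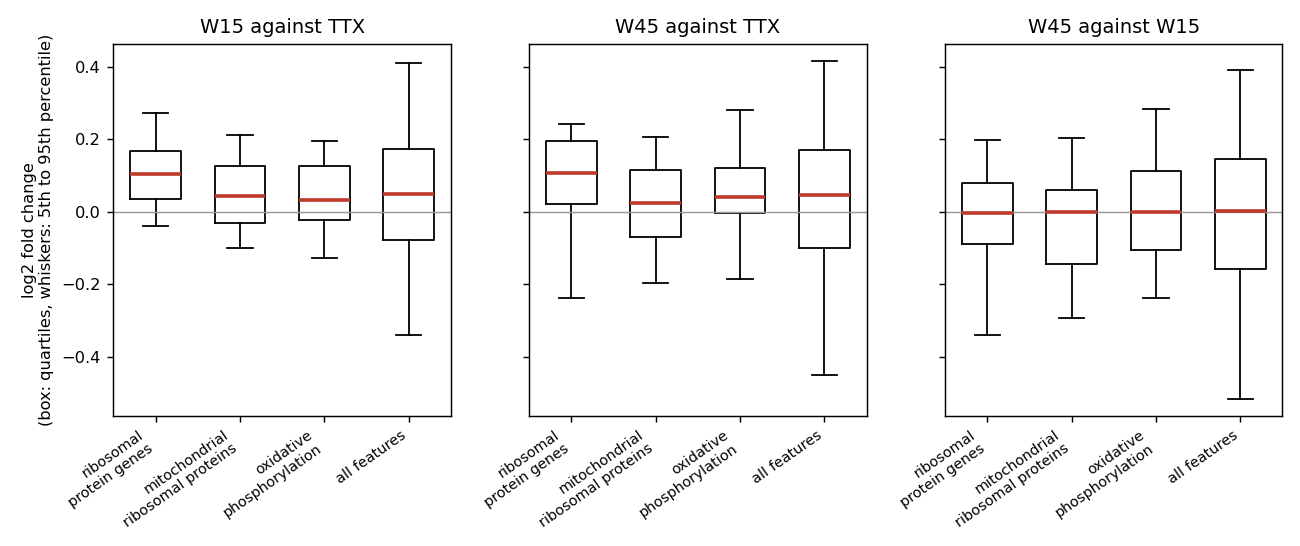
Log2 fold changes (y axis) of the 75 ribosomal protein genes, 62 mitochondrial ribosomal protein genes, 73 oxidative phosphorylation subunits and all 25776 features, in the 3 comparisons (panels). Boxes are quartiles with the median in red and whiskers run from the 5th to the 95th percentile. The ribosomal protein genes have medians of 0.10, 0.11 and -0.0025 and a narrower spread than all features.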

How the data were processed

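The 9 single-colour Agilent arrays (design 014879) were extracted with Agilent Feature Extraction 9.5, per the submitters' processing notes (version 9.5.3.1 per the file headers). The intensity used is the deposited processed signal, which per the file headers is already background-corrected. The authors' deposited value table equals that intensity, compared without a log2 step (largest difference 0), and was used for this check only. Its values are not centred and not rescaled between arrays. Log2 values were taken from the intensity after this check.

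From there, control spots and outlier flags were left out, spots of a probe were averaged, and each array's 75th percentile (1563 to 2526 intensity units) was subtracted on the log2 scale. Between 72.4% and 77.9% of probes were well above background. Kept were the 30311 probes that the scanner software marked as well above background in each of the 3 replicates of some group and that lacked a value on at most 1 array, and the brightest kept probe stood for a gene. Group means over all 9 arrays were fitted with limma 3.58.1 in R 4.3.3, two-sided, with Benjamini-Hochberg adjustment over all 25776 features and a threshold of 0.05; the fit was tested on simulated data. The number of arrays limits the precision: 3 against 3 cannot go below p = 0.1 in an exact permutation test. Alternatives were other scalings, background corrections, filters, probe rules, blocks by slide or replicate number, and each array left out. Figures used matplotlib 3.10.9 in Python 3.11.15.

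The members and lists were chosen with earlier results of these data known. Named genes are the stalk proteins, Rpsa, Rps6, Rps27a, Rpl13a, Rps18, Rpl19, Rpl41 and paralogs, the 6 largest differences in each direction per comparison, and up to 3 genes of other lists; further members named for dips on single arrays, for probe pairs or for groups that do not overlap, and Fau, Rack1, Larp1 and Mtor, were chosen after their values were seen. Values of some single genes are not reported here. All 75 gene symbols matched RefSeq; 108 of 112 probes carry the same symbol through their accession.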

Additional observations from a re-analysis of the deposited data

How the results depend on the processing

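Counts of called members stayed at 0 in each comparison and direction under all alternatives run except 1: without the first W45 array, 1 member (Rps25) was lower at 45 min than in TTX and than at 15 min, in a fit that called 95 and 120 features lower, against 6 and 3 with all arrays. Leaving out each array in turn gave counts of 0 to 1 lower at 45 min in both comparisons and 0 to 0 otherwise, and medians of 0.0611 to 0.136 at 15 min, 0.0429 to 0.153 at 45 min and -0.0598 to 0.0539 between the times. The medians at 15 and 45 min changed sign to -0.0962 and -0.152 without scaling, which shifts all features alike: the distance to the median of all features stayed 0.0546 and 0.0613. The median at 45 min changed to -0.0149 under quantile normalization; the cause was not tested. A replicate block cannot move the medians of 0.10 and 0.11, since every group holds the same replicate numbers, so these say nothing about robustness. It called 0 members and changed no other call of a member. Over all features, all 9 same-numbered pairs of arrays deviated together to some degree after removing group means. The correlations were 0.122 to 0.388 with TTX and 0.062 to 0.182 between W15 and W45. Over the members alone they ran from -0.077 to 0.526 with TTX and from -0.027 to 0.272 between W15 and W45. The members therefore did not deviate together in every such pair. The labels do not say what the numbers share. With slide as a fixed block the medians were 0.129 and 0.109, and within the slide that holds all 3 groups 0.0948 and 0.139, with 1 array a group. Depth cannot be stated for arrays; all members were above background, and the 3 arrays a group limit what a single gene can show, as the widths of the intervals in the report give.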
